A study of Rattus norvegicus with 13 samples.

Results

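In rat, 2782 windows of 1000 bp on chromosomes 1 to 20 carried little methylated-DNA signal in sperm and clear signal in morula embryos, and lay in 100 kb stretches whose summed signal in morulae was less than 2 times that in sperm. They were chosen from 2618741 windows of these chromosomes (2782040 in the genome) on their measured levels. Levels are in CPM, counts per 1000000 counts of a library. A member had a mean of at most 0.15 CPM over the 7 sperm libraries (S) and of at least 0.6 CPM over the 6 morula libraries (M). Bins of 100 kb in which M summed over the bin was 2 or more times the summed S were left out. Because these values selected the members, their morula and sperm levels are given as a description and were not tested.

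Methylated DNA immunoprecipitation uses an antibody to 5-methylcytosine to pull down DNA, and a window gives more counts when more of its CpG sites are methylated or when it holds more of them. After fertilisation, mammalian embryos lose much of the methylation that sperm and egg bring, and the paternal chromosomes lose it early. A morula still holds chromosomes from both parents, and mammalian eggs and sperm are known to be methylated at different places. A window with signal in morulae and little in sperm can therefore be read from the maternal chromosomes, the paternal ones or both, and the counts do not tell these apart.

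The libraries came from outbred Hsd:Sprague Dawley SD rats. Gestating F0 females were injected daily with DDT, an insecticide, or with DMSO, its vehicle, on embryonic days 8 to 14, and only this generation was treated. Sperm of F3 males of both lineages was collected from the cauda epididymis, in a colony aged to 1 year. Morulae were cultured after injection of single sperm heads of either lineage into eggs of superovulated Sprague Dawley donors aged 6 to 12 weeks, so morulae of both groups share eggs from donor females, injection and culture. Each morula library was a pool of embryos. There were 3 control and 3 DDT libraries of morulae, and 3 control and 4 DDT libraries of sperm. No label says that replicates came from separate animals, so p-values measure the spread between these samples, which may be technical.

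Depth differed with the groups. The control morula libraries held 48923904 to 65864303 counts and the DDT morula libraries 37842198 to 40787673. In sperm, control replicate 3 (30386626 counts) and DDT replicate 4 (33684143) stood apart from the other 5 libraries, which held 104860839 to 193750804. Members had a median of 2 counts in each of that pair, against 10 to 27 in the other sperm libraries and 30 to 47 in the morula libraries. The M limit of 0.6 CPM equalled 22.7 to 39.5 counts in a morula library, and the S limit of 0.15 CPM equalled 4.56 to 29.1 counts in a sperm library. Mitochondrial DNA took 0.0302% to 0.0608% of the counts of a morula library and 0.000905% to 0.00453% of those of a sperm library. Mature sperm carry far fewer mitochondrial genomes than embryos, and every library lay on the side of its label.

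Across the members the median M was 0.731 CPM (quartiles 0.658 and 0.849, highest 4.32) and the median S was 0.110 CPM. Without the pair of sperm libraries that stood apart, the median S was 0.119 CPM. Over all windows of chromosomes 1 to 20 the medians were 0.291 CPM in morulae and 0.260 CPM in sperm. Members were thus set apart from an ordinary window on both sides, high in embryos and low in sperm. The mean over members in control morulae 1 to 3 was 0.746, 0.732 and 0.802 CPM. In DDT morulae 1 to 3 it was 0.854, 0.787 and 0.782 CPM. In control sperm 1 to 3 it was 0.127, 0.143 and 0.0727 CPM, and in DDT sperm 1 to 4 it was 0.105, 0.103, 0.107 and 0.0801 CPM. The embryo libraries lay close together, and the lowest sperm values were those of the 2 shallow libraries.

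**Figure D1:**
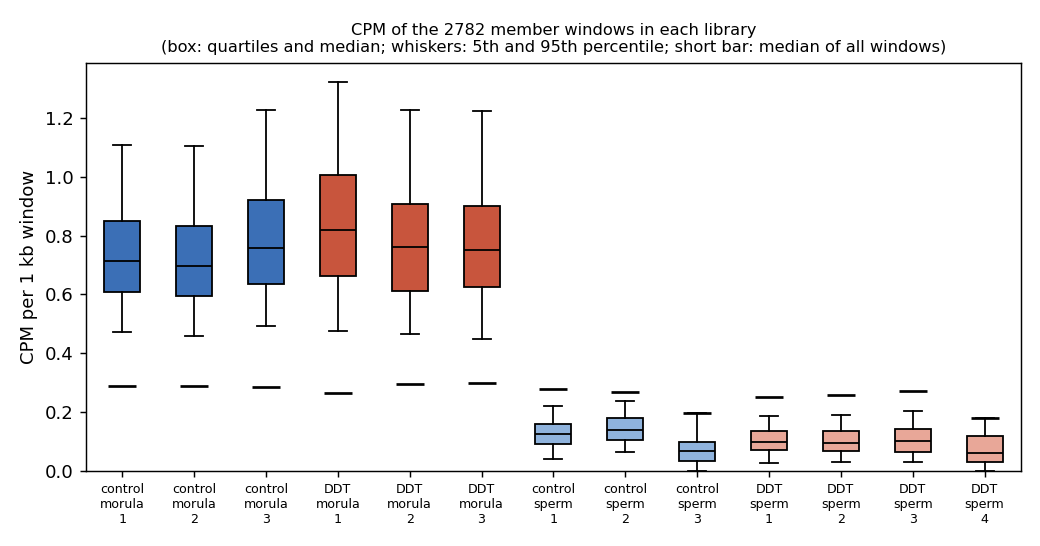
CPM of the member windows in each of the 13 libraries (boxes are quartiles with the median, whiskers the 5th and 95th percentile), with the median of all windows of chromosomes 1 to 20 as a short bar. All 6 morula boxes sit above their bar and all 7 sperm boxes below it, as the selection requires.

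The embryo signal was shared by the libraries rather than carried by 1 of them. In 948 members (34.1%) all 6 morula libraries reached 0.6 CPM, in 668 it was 5 libraries and in 628 it was 4. Only 4 members rested on a single library above that level. The largest share of the summed morula CPM that 1 library held was 21.3% at the median and 34.0% at the most. In 2775 members every morula library lay above every sperm library, and in 2497 the gap was 2-fold or more. The limits on M and S already set the means of these libraries apart, so this separation follows largely from the choice of members. The SD over the mean of the 6 morula libraries had a median of 0.208, where counting alone would give 0.171. No member was without counts in all sperm libraries. At least 1 sperm library had no count in 741 members, and in 45 when the shallow pair was left out.

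The steadiest members showed how close the embryo libraries could be. The window chr20:4699001-4700000 had 0.577, 0.595 and 0.634 CPM in control morulae and 0.581, 0.637 and 0.599 CPM in DDT morulae, with an SD over the mean of 0.0429. The windows chr8:69543001-69544000 (M 0.840 CPM, SD over mean 0.0457) and chr15:22487001-22488000 (M 0.877 CPM, 0.0485) came next. At the other end, chr13:98367001-98368000 ran from 0.307 CPM in control morula 3 to 1.70 CPM in DDT morula 3, with an SD over the mean of 0.580. The window chr8:30369001-30370000 ranged from 0.175 CPM in DDT morula 3 to 1.24 CPM in DDT morula 1, both in the same group. At chr18:78539001-78540000 the range was 0.319 CPM in control morula 1 to 1.16 CPM in DDT morula 1. Their means over 0.6 CPM therefore rested on part of the libraries.

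The 5 members of highest embryo signal lay on chromosomes 2, 5, 9 and 12. The highest, chr5:6372001-6373000, had 2.60, 3.55 and 4.72 CPM in control morulae and 5.92, 3.73 and 5.42 CPM in DDT morulae. In sperm it had 9, 6 and 8 counts in the control libraries and 3, 4, 0 and 7 in the DDT libraries. Its M was 4.32 CPM and its S 0.0899 CPM, or 0.0316 CPM without the shallow pair. The window after it held far more signal, with M 22.7 CPM and S 0.739 CPM, and the window before it held none in either tissue. This member thus lies between an empty window and a much stronger one.

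The second, chr2:198590001-198591000, rose alone above its surroundings in embryos. It had 2.31, 3.86 and 3.72 CPM in control morulae and 5.02, 3.63 and 5.27 CPM in DDT morulae, against 0.0329 to 0.208 CPM in the 7 sperm libraries. Its neighbours had M of only 0.422 and 0.252 CPM. In both of these windows the raw counts of embryos did not follow library depth. The window on chromosome 5 had 171, 209, 231, 224, 152 and 217 counts in control morulae 1 to 3 and DDT morulae 1 to 3, and that on chromosome 2 had 152, 227, 182, 190, 148 and 211. Control morula 1 was the deepest embryo library, yet it and DDT morula 2 gave the lowest counts. Mitochondrial counts were also lowest in these libraries, at 19900 and 20019, against 23023 to 24058 in the other 4. This was noticed after the values were seen, and whether the counts are related was not tested.

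The remaining high members followed depth more closely. The window chr12:9545001-9546000 had 3.02, 2.70 and 3.80 CPM in control morulae and 3.01, 3.43 and 3.42 CPM in DDT morulae, with S 0.146 CPM when the shallow pair is left out. The windows chr5:7016001-7017000 (M 2.21 CPM, S 0.137 CPM) and chr9:4072001-4073000 (M 2.21 CPM, S 0.114 CPM) completed the 5. At chr9:4072001-4073000 the morula libraries ran from 1.92 to 2.37 CPM and the sperm libraries from 0.0658 to 0.186 CPM. Over all members, the logarithm of the count rose with the logarithm of depth across embryo libraries with a median slope of 0.82, against 0.96 in 95986 windows with M of 0.6 to 1 CPM and S above 0.15 CPM.

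The windows had been proposed as isolated gains, and the surrounding signal did not bear out that name. In morulae the windows directly before and after a member had median levels of 0.756 and 0.754 CPM, as high as the member itself. At 20 kb the median M was still 0.660 CPM before and 0.647 CPM after. Both neighbours reached 0.6 CPM for 1454 members (52.3%), against 3.33% of all windows. In windows of member levels inside the bins that were left out, the share was 67.1%. Only 156 members (5.61%) had an M of 2 or more times the mean of their neighbours, against 6.64% of all windows. Inside the bins that were left out it was 2.03% of windows of member levels. The median ratio of a member to the mean of its neighbours was 0.98 in morulae.

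The low sperm level was more local, reaching into the adjacent windows. Median S was 0.110 CPM at the member, 0.206 and 0.199 CPM in the adjacent windows and 0.307 and 0.288 CPM at 2 kb. From 3 to 20 kb it lay between 0.260 and 0.324 CPM, against 0.260 CPM over all windows. The ratio of a member to its neighbours in sperm had a median of 0.397. The same ratio was 0.368 over all 838123 windows with S of at most 0.15 CPM, so a dip of this depth comes with choosing low windows. In 500 members both neighbours were also at or under 0.15 CPM in sperm.

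**Figure D2:**
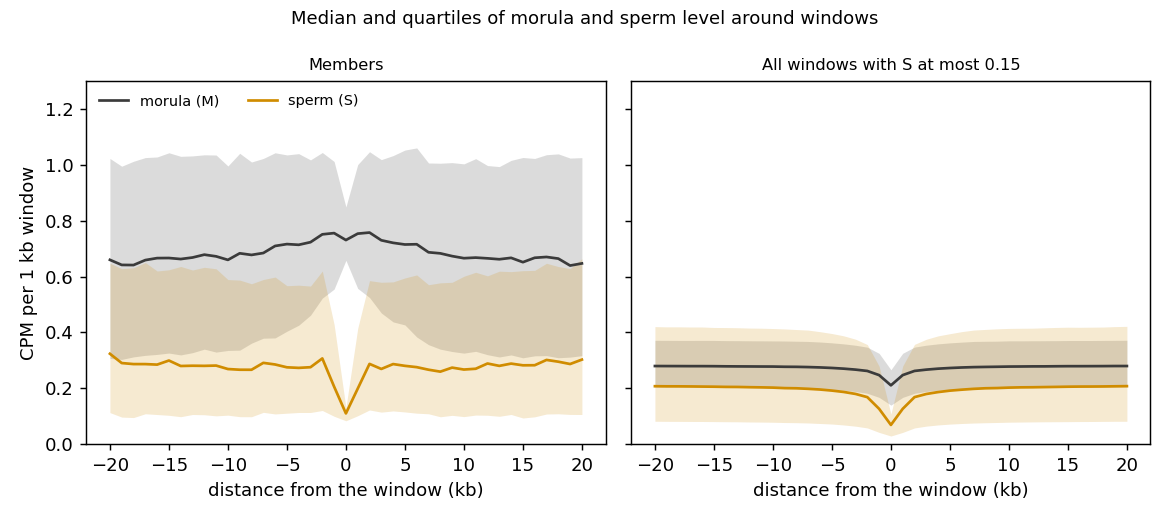
Median level and quartiles in morulae and sperm, in CPM per 1 kb window, against distance in kb from the members (left) and from all windows with S of at most 0.15 CPM (right). Morula signal around members is broad, at 0.756 and 0.754 CPM next to them and 0.660 and 0.647 CPM at 20 kb, while sperm signal is lowest at the member (0.110 CPM), lies at 0.206 and 0.199 CPM next to it and is higher from 2 kb on.

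A few members did rise above their surroundings, and 5 of them are named here after their values were seen. Besides the windows on chromosomes 2 and 12 given above, chr7:381001-382000 had M 1.92 CPM between neighbours of 0.983 and 0.771 CPM. At chr9:4240001-4241000 M was 1.70 CPM, the window before it was empty and the window after it had 0.424 CPM. At chr10:65106001-65107000 M was 1.52 CPM between 0.232 and 0.305 CPM. Embryo values in that window were 1.00, 1.19 and 1.57 CPM in controls and 1.66, 1.69 and 1.97 CPM in the DDT lineage.

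Members also lay near one another. An adjacent window was itself a member for 923 (33.2%), and the median distance to the nearest member was 4 kb. No other member lay within 10 kb for 864 members, within 100 kb for 311 and within 1 Mb for 169. Allowing 1 missing window, the members formed 2083 runs, of which 1620 held 1 member and 150 held 3 or more (536 members in all). Most members were therefore single windows, but set within neighbourhoods that held others.

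The longest run stood out from this pattern. It spanned chr15:45597001-45608000, with 10 members in 11 windows. Its mean over members in control morulae was 1.01, 1.18 and 1.40 CPM, and in DDT morulae 1.27, 0.983 and 1.20 CPM. In sperm it was 0.0456, 0.102 and 0.0296 CPM in controls and 0.0223, 0.0315, 0.0273 and 0.0386 CPM in the DDT lineage. The groups of embryos overlapped, and every embryo library was above every sperm library, which the choice of members favours. The 5 windows before the run averaged 0.277 CPM in morulae and 0.317 CPM in sperm, so no embryo excess was seen there. After the run came 1 window of low signal and then 14 windows with no count in any library. The 2 bins that hold the run had ratios of 0.745 and 1.31, so the surrounding 100 kb did not share its gain.

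**Figure D3:**
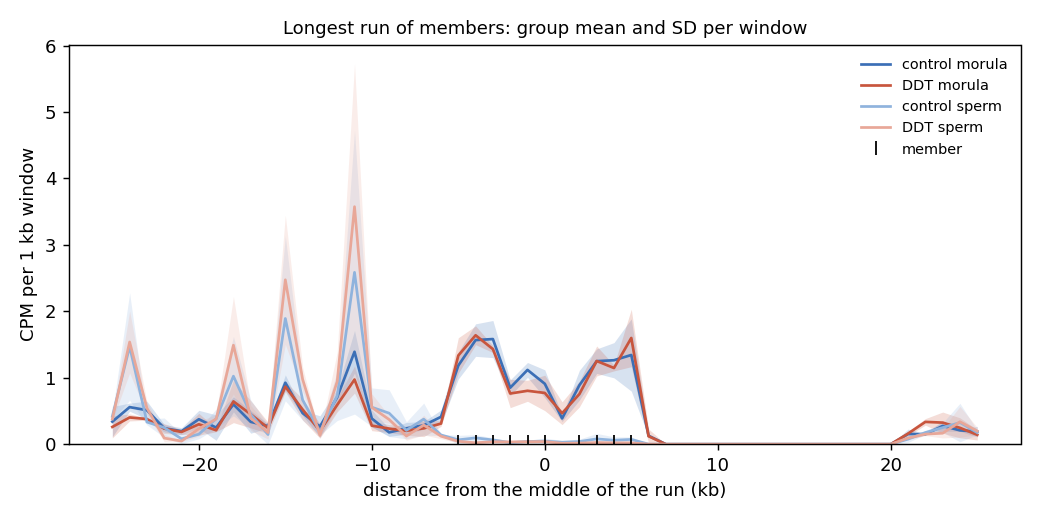
Mean level of each group (line) and SD (band) in CPM per 1 kb window across the longest run, against distance in kb from its middle, with ticks at the 10 members. Both morula groups rise together along the run while both sperm groups stay near 0, and the sperm peaks lie before it.

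The next runs were of a different kind. A run of 8 members at chr1:26207001-26218000 had a mean M of 0.803 CPM and a mean S of 0.105 CPM in a bin of ratio 1.66. Its embryo libraries ranged from 0.680 CPM in DDT morula 3 to 1.01 CPM in DDT morula 1. A run of 8 members at chr1:182688001-182697000 had a mean M of 0.766 CPM and a mean S of 0.0859 CPM in a bin of ratio 1.73. Both thus lay in bins that leaned towards morulae as a whole.

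Most members in fact came from bins that leaned towards morulae. The bin ratio had a median of 1.63 over members and 1.01 over all windows. A ratio of 1.5 to 2 was found for 1856 members (66.7%), against 4.87% of all windows outside bins of ratio 2 or more. The share was 8.11% over all windows with S of at most 0.15 CPM. The rule used the bin ratio, and the sums of a bin include its members' own M and S. Some members lay in bins without such a lean, with 774 between 1 and 1.5 and 152 (5.46%) under 1. A bin of ratio 2 or more lay within 2 bins of 947 members (34.0%) and within 5 bins of 1419 (51.0%). The same held for 1.97% and 4.22% of all windows outside such bins. Inside the 289 bins of ratio 2 or more, out of 26198, another 1774 windows had member levels and were left out by the rule. Their median M was 0.808 CPM and their median S 0.105 CPM.

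In position the members were concentrated. They fell into 896 bins of 100 kb, and 195 bins with 5 or more held 1601 of them, up to 20 in 1 bin. Of 2629 stretches of 1 Mb, 462 had a member, and the 20 richest held 970 members (34.9%). The richest was chr15:21000001-22000000 with 80, followed by chr1:182000001-183000000 with 78 and chr16:30000001-31000000 with 70. The next were chr14:95000001-96000000 with 64 and chr2:163000001-164000000 with 61. All 4 stretches of chr2:160000001-164000000 were among the 20, with 50, 44, 46 and 61 members.

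By chromosome, the densest was 15, with 320 members, 11.5% of all on 4.25% of the windows, or 2.88 per 1000 windows. Chromosome 12 had 2.47 per 1000 (130 members), 14 had 2.22 (256), 2 had 2.02 (537) and 1 had 1.96 (554). The sparsest were 13 with 0.202 per 1000 (23 members), 11 with 0.232 (21) and 10 with 0.257 (29). Per 1000 windows with S of at most 0.15 CPM there were 10.6 members on chromosome 12, 8.70 on 15 and 0.603 on 13, so chromosomes also differed among low-sperm windows. Within 2 Mb of a chromosome end lay 6.83% of members and 3.05% of all windows. The share was 3.97% over windows with S of at most 0.15 CPM. Over windows of member levels inside bins of ratio 2 or more it was 1.47%. A window without counts in any library lay within 10 kb of 35.5% of members, against 17.8% of all windows, and within 1 kb of 3.02%, against 5.78%. The 10 kb share was 29.6% over all windows with S of at most 0.15 CPM and 26.9% over windows of member levels inside bins of ratio 2 or more. The members' 10 kb share lay closer to both of these than to that of all windows. In the same order, the 1 kb share in these sets was 16.3% and 2.09%.

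**Figure D4:**
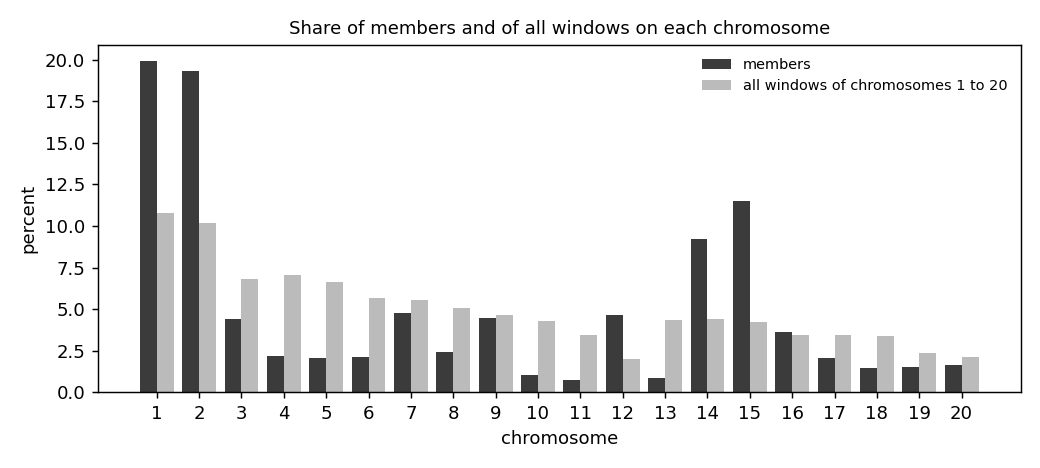
Percent of the 2782 members (dark bars) and of all windows of chromosomes 1 to 20 (light bars) on each chromosome. Chromosomes 1, 2, 12, 14, 15 and 16 hold more members than their share of windows, from 3.63% against 3.46% on chromosome 16 to 11.5% against 4.25% on chromosome 15.

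Which sequence or gene a member overlaps was not analysed here, since positions are on build Rnor_6.0 and no annotation of that build was used.

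The lineage comparison asks whether ancestral DDT exposure went with a different signal in these windows. It was not the contrast that chose the members. M and S are means over the same libraries, however, so the comparison is not independent of that choice. How far the choice shaped the leans given below was not tested. In embryos no member passed the test. All 2782 members were among the 2568322 windows tested with edgeR's quasi-likelihood test, and 0 had a Benjamini-Hochberg adjusted p under 0.05 (smallest 0.669). DESeq2 also called 0 members. Over all tested windows 1 passed, or 3.89e-05%. It lay outside chromosomes 1 to 20, where 0 of 2448077 tested windows passed (smallest adjusted p 0.262). The mean over members was 0.760 ± 0.037 CPM in control morulae and 0.808 ± 0.040 CPM in DDT morulae (SD, n = 3 each), and the groups overlapped.

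Members leaned towards the DDT lineage in embryos. At an unadjusted p under 0.05, 153 members (5.5%) were higher with DDT, against 2.48% of all tested windows, and 20 (0.719%) were lower, against 2.42%. Without overlap between groups, 228 members (8.2%) were higher with DDT, against 4.4% of all windows, and 83 (2.98%) were lower, against 5.65%. The median log2 difference was 0.11 over members and 0.01 over all windows. Above 0 were 1887 of 2782 members and 1307398 of 2568322 windows. Without DDT morula 1 the median over members was 0.05 and 1589 were above 0, against 1279017 of 2573760 windows. In that fit 111 members (3.99%) were higher at an unadjusted p under 0.05, against 2.54% of all windows, and 55 (1.98%) were lower, against 2.68%. Without control morula 3 the median over members was 0.16. In that fit 192 members (6.9%) were higher at an unadjusted p under 0.05, against 2.53% of all windows. Those lower were 13 (0.467%), against 2.31% of all windows. DDT morula 1 had the highest mean over all 201395 windows of chromosomes 1 to 20 with M of at least 0.6 CPM. It was 1.55 CPM, against 1.31 to 1.40 CPM in the other embryo libraries. DDT morula libraries were also shallower, and the part of either in this lean was not tested.

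The 3 members of smallest p that were higher with DDT in embryos lay on chromosomes 9, 13 and 19. At chr13:98367001-98368000, control morulae had 0.531, 0.663 and 0.307 CPM and DDT morulae 0.819, 0.981 and 1.70 CPM. The groups did not overlap, and the log2 difference was 1.21 ± 0.26 (SE), with an adjusted p of 0.669. When DDT morula 1 was left out, this window alone among members passed. At chr19:59464001-59465000, control morulae had 0.653, 0.816 and 1.00 CPM and DDT morulae 1.72, 1.27 and 1.57 CPM (log2 difference 0.93 ± 0.23, adjusted p 0.817). At chr9:106264001-106265000 the DDT morulae lay between 1.45 and 1.53 CPM and the controls between 0.634 and 1.00 CPM (0.90 ± 0.23, adjusted p 0.887). In each of the 3 the DDT libraries were all above the controls, and none passed over all windows.

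In the other direction the differences were smaller. At chr3:146385001-146386000 control morulae had 1.26, 1.27 and 1.27 CPM and DDT morulae 0.872, 0.883 and 0.599 CPM, a log2 difference of -0.67 ± 0.24 with an adjusted p of 0.998. At chr2:162006001-162007000 controls had 0.850, 0.850 and 1.02 CPM and DDT morulae 0.581, 0.466 and 0.524 CPM, a log2 difference of -0.76 ± 0.28. At chr1:208002001-208003000 the groups overlapped, since control morula 1 had 0.395 CPM against 1.05 and 1.12 CPM in the other controls and 0.370 to 0.515 CPM in DDT morulae.

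In sperm, the low counts of members limited what could be seen. Of the 2782 members 2717 passed the filter on low counts, and 0 of these passed the test (smallest adjusted p 0.843), as did 0.0% of all 2454365 windows tested. DESeq2 also called 0 members. Members leaned towards lower signal with DDT. At an unadjusted p under 0.05, 256 members (9.42%) were lower, against 3.32% of all tested windows, and 29 (1.07%) were higher, against 2.61%. Without overlap between groups, 177 (6.51%) were lower, against 3.63%, and 24 (0.883%) were higher, against 2.15%. The median log2 difference was -0.28 over the members tested and -0.01 over all windows. This is the opposite direction to embryos, and whether the lineage difference itself differed between tissues was not tested over the members.

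The lean in sperm went with a feature of all low windows. Over the 838123 windows with S of at most 0.15 CPM, the mean in control sperm 1 to 3 was 0.0801, 0.0864 and 0.0545 CPM, and in DDT sperm 1 to 4 it was 0.0636, 0.0668, 0.0744 and 0.0556 CPM. Control sperm 1 and 2 were thus above every DDT library there, as they were over the members, and the deepest library was among them. The part of this in the members' lean was not tested. Control sperm 2 weighed most, since without it the median log2 difference of members was -0.13. In that fit 86 of 2575 members (3.34%) were lower at an unadjusted p under 0.05, against 1.24% of all windows, and 34 (1.32%) were higher, against 1.1%.

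Among members, any call in sperm depended on the pair of libraries that stood apart. With both left out (2 control and 3 DDT libraries remaining), 131 of 2753 members passed, 122 lower with DDT and 9 higher. Of all windows 4.02% were lower and 6.4% higher in that fit, and of the members 4.43% and 0.327%. The share of members lower with DDT was thus close to that of all windows, while the share higher was far below it. At an unadjusted p under 0.05 in that fit, 16.8% of members were lower, against 11.4% of all windows. Those higher were 1.74% of members, against 13.3% of all windows.

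**Figure D5:**
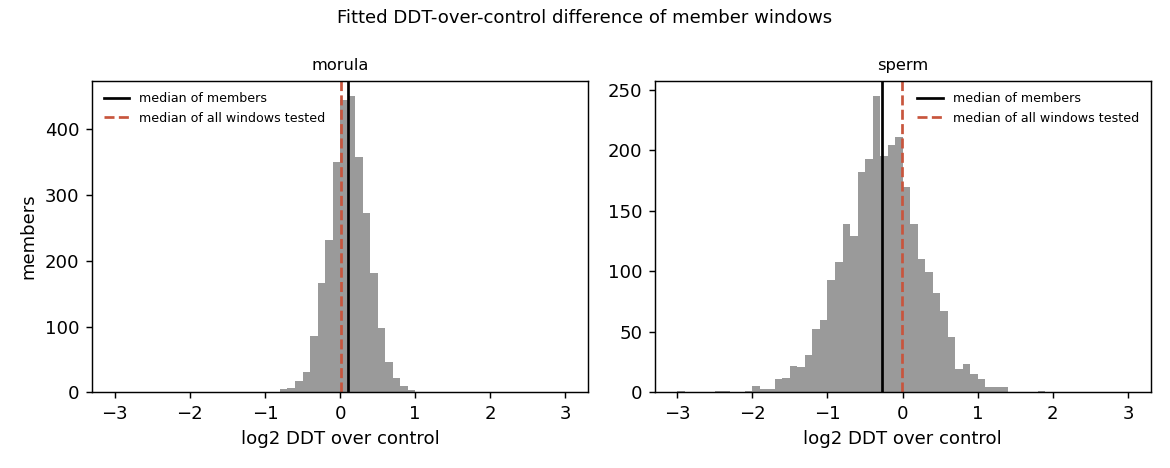
Number of members by log2 difference of DDT over control from the edgeR fit, in morulae (left) and sperm (right), with the median of members (solid line) and of all tested windows (dashed line). Members centre at 0.11 in morulae and at -0.28 in sperm, while all windows centre close to 0.

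The sperm members of smallest p rested on low counts. At chr2:157031001-157032000 control sperm had 0.263, 0.243 and 0.263 CPM and DDT sperm 0.0447, 0.0954, 0.0545 and 0.0297 CPM, or 38, 47 and 8 counts against 5, 10, 7 and 1. The log2 difference was -2.02 ± 0.38 (SE), with an adjusted p of 0.843. At chr2:163612001-163613000 control sperm had 0.173, 0.196 and 0.197 CPM and DDT sperm 0.0536, 0.0572, 0.0467 and 0.0594 CPM (-1.75 ± 0.38, adjusted p 0.843). In both windows the 3 controls lay above the 4 DDT libraries. At chr7:10268001-10269000 control sperm 1 and 2 had 0.339 and 0.320 CPM, but control sperm 3 had 0.0329 CPM, within the range of the DDT libraries.

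Higher with DDT was chr7:47001-48000, with 0.0345, 0.0310 and 0.0329 CPM in control sperm and 0.152, 0.0668, 0.125 and 0.119 CPM in DDT sperm. The log2 difference was 1.85 ± 0.47, with an adjusted p of 0.843. At chr4:32967001-32968000 the control values were 0.0898, 0.0619 and 0.0987 CPM and the DDT values 0.119 to 0.241 CPM. At chr1:238466001-238467000 the control values were 0.0691, 0.119 and 0 CPM and the DDT values 0.148 to 0.249 CPM. Embryo levels at these windows did not separate the lineages, as at chr7:47001-48000, where controls had 0.544 to 0.790 CPM and DDT morulae 0.549 to 0.925 CPM.

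In the authors' deposited table, all 2782 members were called higher in morulae than in sperm at an adjusted p under 0.05, in the control lineage (13.8% of all windows with a value) and in the DDT lineage (12.9%). The median log2 difference of members in the authors' deposited table was 2.56 and 3.02. The choice of members used this contrast, so nothing is read from these counts. The authors' deposited adjusted p called 0 members in either comparison of DDT with control.

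The limits that chose the members cut through a continuum. Between 0.6 and 0.65 CPM in morulae lay 597 members, and 923 windows that met the other conditions had an M of 0.55 to 0.6 CPM. In sperm, 371 members had an S above 0.14 CPM, and 376 windows that met the other conditions lay between 0.15 and 0.16 CPM. By bin, 358 members were in bins of ratio 1.9 to 2, and 255 windows of member levels were in bins of 2 to 2.1.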

How the data were processed

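The deposited tables hold raw counts per 1000 bp window on build Rnor_6.0, beside RPKM values (26 columns, not used here) and the authors' edgeR log2 fold changes and adjusted p-values, per the file headers. Per the submitters' processing notes, the tools were FastQC, Trimmomatic, Bowtie2, SAMtools and edgeR. The deposited counts reach at most 2000 per window, and whether the authors removed duplicate reads is not given in the sources used here.

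Counts of all 13 libraries were joined by position and scaled to CPM. DDT was compared with control within each tissue on the counts, over all windows that averaged 5 or more counts per library, by edgeR 4.0.16 (R 4.3.3; quasi-likelihood test, TMM scaling, dispersion from the 5% most abundant windows, two-sided) with Benjamini-Hochberg adjustment. In morulae the fit pooled the spread between libraries fully over windows, and p does not use the spread of the single window. SEs follow from the effect and its test. The procedure was tested on simulated data. Alternatives, DESeq2 1.42.0 among them, are given in the closing section.

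The members, the tests and the alternatives were chosen with earlier results of these data known. Windows were named by rule: the 5 of highest M, the 3 longest runs, the 3 of highest and of lowest spread over morula libraries, and the 3 of smallest p per direction in each comparison. Those chosen after their values were seen are marked so. Levels that chose the members were not tested. Counting limits cover counting error only, since the reads carry no molecular identifiers. No genome or annotation of the build was used.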

Additional observations from a re-analysis of the deposited data

Results flagged for a closer look

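In DDT sperm, the only group of 4 libraries, 29 values (the mean over members, the named windows and the named runs) were examined for 1 library far from the other 3, and 5 were found, each time DDT sperm 4. Chance finds about 1 in 20 groups, and this library was the shallowest of its group. Its mean over members was 0.0801 CPM against 0.103 to 0.107 CPM in the others. It was high at chr2:198590001-198591000 (0.208 CPM against 0.0477 to 0.0715 CPM), at chr8:30369001-30370000 (0.267 CPM against 0.0467 to 0.0804 CPM) and at chr19:59464001-59465000 (0.267 CPM against 0.105 to 0.125 CPM). At chr2:162006001-162007000 it had 0 counts, where 3 counts would be 0.0891 CPM, against 0.0893 to 0.101 CPM in the others.

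At chr2:163612001-163613000 the lineages moved in opposite directions without overlap. The embryo libraries had 0.805, 0.799 and 0.715 CPM in controls and 0.925, 1.08 and 0.924 CPM with DDT, while the sperm controls all lay above the DDT sperm. The log2 ratio of the DDT-to-control ratio in embryos over that in sperm was 2.14. It was 1 of 26 values compared in this way, and the difference was not tested.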

How the results depend on the processing

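The number of members followed the limits: 1113 with S of at most 0.1 CPM, 4979 with at most 0.2, 5127 with M of at least 0.5 CPM, 949 with at least 0.8, 926 with a bin ratio limit of 1.5 and 4556 with no bin rule. It was 2526 to 3094 when 1 library was left out, and TMM-scaled CPM, medians, lineage means, a bin ratio of 3 and leaving out the shallow sperm pair kept it within 1.5 times 2782. In morulae, DESeq2 as the test, a trended dispersion, a common dispersion and the replicate block each called 0 windows in place of 1, the authors' deposited adjusted p called 2, and leaving out 1 library gave 0 to 42 (42 without DDT morula 1). Members called were 0 in each of these except 1 without DDT morula 1 (0 to 1 over libraries left out). In sperm, DESeq2 called 19 windows, the replicate block 1, the authors' deposited adjusted p 28, and leaving out 1 library gave 0 to 17 (17 without control sperm 3). Members called were then 0 throughout (0 to 0 over libraries left out). Without the shallow pair, 261890 windows and 131 members passed. The cause of these shifts was not tested.

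The 12 windows named for the DDT comparisons kept their direction in all 179 alternative values, and 7 of these values passed the test. The windows were picked for smallest p and the alternatives reuse the same libraries, so a kept direction is not independent support. Replicate numbers did not pair libraries: deviations of same-numbered libraries correlated at -0.01 at numbers 1 and 3 and 0.00 at 2 in morulae, and at 0.26, 0.39 and -0.49 in sperm, where control replicate 3 and DDT replicate 4 went together (0.64). A common dispersion, the deposited p and the fit without the pair were chosen after seeing the data. Sequence features were not run.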

Other observations

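Outside chromosomes 1 to 20, the X chromosome had 275 windows of member levels among 159971, of which 209 lay inside 100 kb bins of ratio 2 or more and 66 outside. On chromosomes 1 to 20 the same split was 1774 inside and 2782 outside. The Y chromosome had 0 such windows among 3311 and the mitochondrial genome 0 among 17. The sex of the embryos in a pool is not given in the sources used here.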
